A study of Mus musculus with 8 samples.

Results

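The Tudor domain genes of the germ line described here were 9 gene symbols of the 23235 in the FPKM tables: Tdrd1, Tdrd3, Tdrd5, Tdrd6, Tdrd7, Tdrd9, Tdrkh, Rnf17 and Stk31. They were taken by symbol as Tudor domain genes of the germ line, and Tdrd3 among them is widely expressed and not a classic granule protein. All 9 were matched, and all 9 were among the 15899 genes with an FPKM above 1 in at least 1 library. FPKM counts mapped fragments relative to transcript length and library size, so that genes can be set side by side on it.

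The study compared RNA of spermatocytes from Cnot4-null and wild-type (WT) mice at successive intervals of the first meiotic prophase. CNOT4 is an E3 ubiquitin ligase with an RNA recognition motif that associates with the CCR4-NOT deadenylase complex. Cells were sorted by Hoechst and propidium iodide fluorescence into an LZ fraction (leptotene and zygotene) and a PD fraction (pachytene and diplotene), and each of the 4 groups had 2 libraries. Sorted cells were stained for SYCP3 and phosphorylated H2AX as a check of the fractions. The groups were WT LZ, Cnot4-null LZ, WT PD and Cnot4-null PD, all from male mice of the C57BL/6 strain, which the methods give as 6-week-old. The Cnot4-null cells came from Cnot4 fl/fl;Stra8-Cre mice, in which Cre under the Stra8 promoter removes exon 2 of Cnot4 in germ cells from before meiosis and shifts the reading frame. Stra8-Cre is active in male germ cells from differentiating spermatogonia on. The paper's discussion, unlike its results, places the deletion after meiotic entry. Neither its timing nor its extent was tested here, and the WT genotype is known only as labelled. The methods call the duplicates biological, but the labels tie no library to an animal, so each p measures the spread between these libraries. The files keep no read counts. The relative depth estimated from the smallest values was 0.824 to 1.32 of that of WT LZ replicate 1. This estimate is uncertain, because the read totals listed by the authors put the libraries in another order.

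Tudor domains bind methylated arginines, and in the male germ line many of their targets are PIWI proteins, which carry PIWI-interacting RNAs (piRNAs) and silence transposons. Tudor proteins act as scaffolds that hold PIWI proteins, helicases and piRNA-processing nucleases in cytoplasmic granules: the intermitochondrial cement of spermatocytes and the chromatoid body of late spermatocytes and round spermatids. A burst of pachytene piRNAs is made in pachytene spermatocytes, under transcription factors such as MYBL1 and TCFL5, and loss of several Tudor genes arrests spermatogenesis.

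Cnot4 itself was read at 36.0 and 34.9 FPKM in the WT LZ libraries and 43.2 and 34.6 in the Cnot4-null LZ libraries. It was read at 76.6 and 73.1 in the WT PD libraries and 65.9 and 53.5 in the Cnot4-null PD libraries. The difference between genotypes was 0.12 ± 0.20 (log2, SE) at LZ and -0.33 ± 0.20 at PD, and neither passed the test (limma adjusted p = 1 and 0.193). With median rescaling the difference at PD was -1.74 (adjusted p = 0.000501). A value summed over a whole gene cannot show the loss of 1 exon, so these levels do not test the genotype labels. The groups are therefore called WT and Cnot4-null as the labels give them.

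The members lie on 8 chromosomes of the mm9 assembly and are long genes. By the GENCODE M1 models, Tdrd6 (chr17:43752284-43767248) has a coding length of 6405 bases in 5 exons, Rnf17 (chr14:57021534-57143869) 4920 bases in 37 exons and Tdrd9 (chr12:113209770-113307065) 4149 bases in 36 exons. Tdrkh (chr3:94217218-94236555) had the shortest coding length, 1680 bases in 14 exons. The median was 3436.5 bases over the 8 members with a coding model and 1303.5 over the 14410 of the 15899 kept genes that had one. Tdrd5 (chr1:158185426-158233795) had no coding model there.

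Of the members, 7 had an entry in the RefSeq promoter table (GRCm38.p6), with 12 windows from 250 bases before to 50 bases after a transcript start. Tdrd6 and Rnf17 were the others. The windows were searched on both strands for AACNGCC, the core of the MYB family motif, and for CACGTG, the E-box that reads the same on both strands. AACNGCC was found in 3 windows of 3 members and in 12.1% of all 32851 windows and 13.6% of all genes. CACGTG was found in 5 windows of 3 members and in 7.15% of all windows and 8.09% of all genes. The windows of Stk31 overlap and hold the same site, as do 2 of those of Tdrd1. The 250 bases before the start are shown for the most upstream window of each member that held a match. They lie at chr19:56825959-56826208 (Tdrd1), chr12:111971309-111971558 (Tdrd9), chr6:49395289-49395538 (Stk31), chr4:45965085-45965334 (Tdrd7) and chr3:94412994-94413243 (Tdrkh), all on the + strand, and are shown because they hold the matches. Capitals mark the matches, which are CACGTG in Tdrd1, Tdrd9 and Stk31 and the reverse complement of AACNGCC in Tdrd7 and Tdrkh.
Tdrd1: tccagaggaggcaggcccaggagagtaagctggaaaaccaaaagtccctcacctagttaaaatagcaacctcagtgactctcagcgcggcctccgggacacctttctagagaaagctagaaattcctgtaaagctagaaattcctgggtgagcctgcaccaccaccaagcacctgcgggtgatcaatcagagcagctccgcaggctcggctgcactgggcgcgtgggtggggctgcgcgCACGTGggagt
Tdrd9: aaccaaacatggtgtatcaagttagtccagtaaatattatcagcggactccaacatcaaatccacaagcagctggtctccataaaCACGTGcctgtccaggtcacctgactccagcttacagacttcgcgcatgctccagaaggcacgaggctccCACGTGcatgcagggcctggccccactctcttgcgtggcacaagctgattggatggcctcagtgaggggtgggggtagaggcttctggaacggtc
Stk31: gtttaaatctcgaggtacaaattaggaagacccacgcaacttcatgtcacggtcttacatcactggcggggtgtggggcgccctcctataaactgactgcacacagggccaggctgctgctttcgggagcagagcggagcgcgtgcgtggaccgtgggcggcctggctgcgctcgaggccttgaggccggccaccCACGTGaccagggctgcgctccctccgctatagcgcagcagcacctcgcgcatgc
Tdrd7: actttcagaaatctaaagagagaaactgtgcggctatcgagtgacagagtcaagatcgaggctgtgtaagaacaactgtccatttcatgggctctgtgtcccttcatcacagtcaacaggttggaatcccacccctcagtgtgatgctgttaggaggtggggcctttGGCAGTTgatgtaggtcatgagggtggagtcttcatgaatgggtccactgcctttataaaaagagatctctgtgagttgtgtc
Tdrkh: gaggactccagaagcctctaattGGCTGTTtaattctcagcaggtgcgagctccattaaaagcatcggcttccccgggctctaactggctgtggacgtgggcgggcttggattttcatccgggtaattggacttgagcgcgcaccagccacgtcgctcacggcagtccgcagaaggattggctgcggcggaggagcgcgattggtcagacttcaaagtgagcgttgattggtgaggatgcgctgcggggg
The CACGTG of Tdrd1 began 11 bases before the start, that of Stk31 55 bases before it, and those of Tdrd9 165 and 95 bases before it. Tdrd1 also had an AACNGCC match in a separate window downstream, 122 bases before its start. A match is a run of letters and not a binding site.

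The first comparison asked how these transcripts changed from LZ to PD in WT cells. In WT, 6 of the 9 members rose, 1 fell and 2 did not pass the test (limma, adjusted p under 0.05), where 21.6% of all genes tested rose and 36.2% fell. The members' median change was 1.75 (log2 of FPKM + 1), beside -0.32 for all genes. Their summed FPKM was 211 and 205 in the WT LZ libraries and 543 and 537 in the WT PD libraries. Fewer cells of a type and less RNA per cell cannot be told apart in such bulk libraries.

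**Figure D1:**
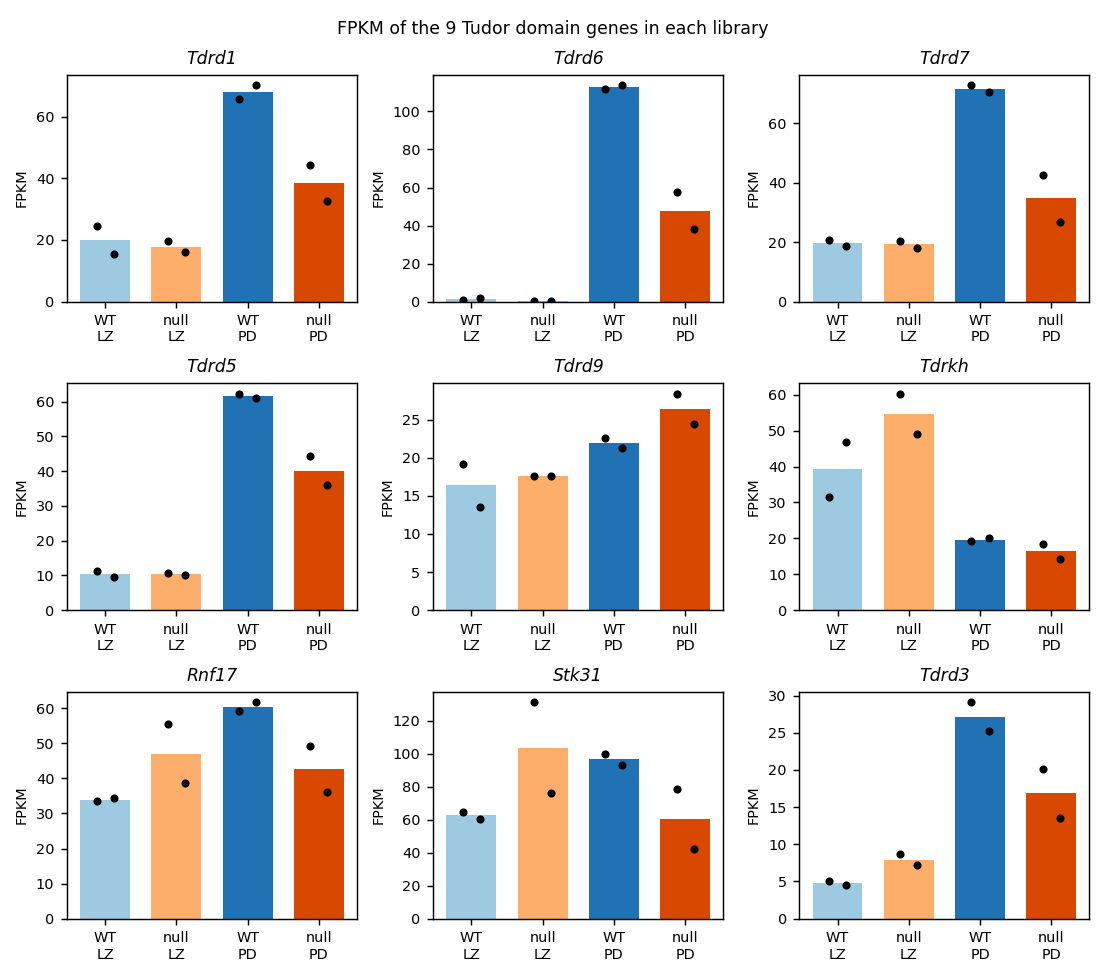
FPKM (vertical axes, from 0) of the 9 Tudor domain genes in the 4 groups. Bars are means and points the 2 libraries of a group. Tdrd6 went from 0.637 and 2.001 in the WT LZ libraries to 112 and 114 in the WT PD libraries. Between genotypes at PD, Tdrd1, Tdrd5, Tdrd6 and Tdrd7 were called lower in Cnot4-null, 4 of the 9 members beside 11.5% of all genes.

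Tdrd6, which the chromatoid body needs for its architecture, had the largest change of the 9. It was read at 0.637 and 2.001 FPKM in the WT LZ libraries and at 112 and 114 in the WT PD libraries. The PD libraries stood far above the LZ libraries, where the gene was close to the limit of 1 FPKM. The change was 5.68 ± 0.34 (log2, SE; limma adjusted p = 2.48e-05), a size that the added 1 FPKM understates. Tdrd7, which acts in chromatoid body remodelling, went from 20.7 and 18.7 to 72.8 and 70.6 FPKM. Tdrd1, a partner of PIWIL2 in the intermitochondrial cement, went from 24.6 and 15.3 to 65.6 and 70.2 FPKM. In each of these genes the libraries of a stage lay apart from those of the other. The changes were 1.81 ± 0.25 for Tdrd7 and 1.75 ± 0.28 for Tdrd1 (log2, SE; limma adjusted p = 0.000588 and 0.00119). Tdrd5, which has LOTUS domains beside its Tudor domain and is required for chromatoid body assembly, went from 11.1 and 9.49 to 62.3 and 61.0 FPKM, a change of 2.47 ± 0.20 (log2, SE; limma adjusted p = 5.98e-05).

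Tdrkh and Tdrd9 are tied to piRNA production. Tdrkh, a mitochondrial protein that brings PIWI proteins to the trimming of piRNA ends, was read at 31.6 and 46.8 FPKM in the WT LZ libraries and 19.3 and 19.999 in the WT PD libraries. Both PD libraries lay below both LZ libraries. It fell by 0.94 ± 0.25 on the log2 scale (limma adjusted p = 0.0147). The fall was -0.08 (adjusted p = 0.812) once the libraries were rescaled to the same median. Tdrd9, a helicase of the fetal piRNA pathway, was read at 19.2 and 13.6 FPKM in the WT LZ libraries and 22.6 and 21.2 in the WT PD libraries. Both PD libraries lay above both LZ libraries, with a difference of 0.42 ± 0.22 (log2, SE; limma adjusted p = 0.15). It passed the test with quantile normalization (0.61, adjusted p = 0.0464) and with median rescaling (1.27, adjusted p = 0.00222). The difference was 0.65 (adjusted p = 0.0597) without WT LZ replicate 1 and 0.18 (adjusted p = 0.55) without WT LZ replicate 2.

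Rnf17, a RING finger protein with Tudor domains that forms granules of its own, went from 33.5 and 34.3 FPKM in the WT LZ libraries to 59.2 and 61.7 in the WT PD libraries. Its rise was 0.82 ± 0.24 (log2, SE; limma adjusted p = 0.0213), and the duplicates of each stage nearly coincided. Stk31, a kinase-like protein of spermatocytes, was read at 64.8 and 60.5 and then at 100.1 and 93.4 FPKM. Its libraries did not overlap between the stages. The difference of 0.62 ± 0.35 (log2, SE from a spread shared by all 4 groups) did not pass the test (limma adjusted p = 0.172). It passed with median rescaling (1.497, adjusted p = 0.00611) and when only the WT libraries were fitted (adjusted p = 0.00822). With quantile normalization the difference was 0.29 (adjusted p = 0.359). Tdrd3, which reads methylated arginines on histones and on RNA polymerase, went from 5.07 and 4.50 to 29.1 and 25.2 FPKM. Its rise of 2.28 ± 0.25 (log2, SE; limma adjusted p = 0.000226) lay between those of Tdrd7 and Tdrd5.

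With libraries left out in turn, the call of Rnf17 was lost without any 1 of the 4 WT libraries (0.79 to 0.85, adjusted p = 0.0748 to 0.103). That of Tdrkh was lost without WT LZ replicate 2 (-0.66, adjusted p = 0.0843), WT PD replicate 1 (-0.91, adjusted p = 0.0796) or WT PD replicate 2 (-0.96, adjusted p = 0.0681).

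The second comparison was the same step in the other genotype. In the libraries labelled Cnot4-null, 5 of the 9 members rose from LZ to PD, 1 fell and 3 did not pass the test, where 27.8% of all genes rose and 18.2% fell. The members' median change was 0.79 (log2), beside 0.19 for all genes. Their summed FPKM was 324 and 234 at LZ and 383 and 264 at PD, so that the ranges of the 2 stages overlapped. In the same step all 6 Leydig cell, all 6 spermatid and all 3 peritubular myoid markers, described below, were called higher. With median rescaling 5 of the spermatid markers were called. Tdrd6 went from 0.487 and 0.473 to 57.4 and 38.2 FPKM, a rise of 5.01 ± 0.34 (log2, SE; limma adjusted p = 0.000295). Tdrd5 went from 10.6 and 10.1 to 44.2 and 36.0 FPKM, a rise of 1.85 ± 0.20 (limma adjusted p = 0.000631). Tdrd1, Tdrd3 and Tdrd7 rose by 1.06, 0.98 and 0.79 (log2; limma adjusted p = 0.0181, 0.0174 and 0.0355). Tdrkh went from 60.3 and 49.2 to 18.4 and 14.3 FPKM, and it fell by 1.69 ± 0.25 on the log2 scale (limma adjusted p = 0.00207).

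The 3 members that did not pass were Tdrd9, Rnf17 and Stk31. Tdrd9 was read at 17.6 and 17.6 FPKM at LZ and 28.4 and 24.4 at PD, without overlap (0.56 ± 0.22, limma adjusted p = 0.077). Rnf17 was read at 55.4 and 38.6 FPKM in the Cnot4-null LZ libraries and 49.3 and 36.2 in the Cnot4-null PD libraries, which overlapped (-0.13 ± 0.24, limma adjusted p = 0.689). Stk31 was read at 131 and 76.4 and then at 78.6 and 42.3 FPKM, again with overlap (-0.78 ± 0.35, limma adjusted p = 0.103). It passed the test with quantile normalization (-0.98, adjusted p = 0.0153) and with median rescaling (-1.36, adjusted p = 0.0118), and Rnf17 with median rescaling (-0.70, adjusted p = 0.0341). Without Cnot4-null LZ replicate 1 the differences of Stk31 and Rnf17 were -0.40 and 0.13, and without Cnot4-null LZ replicate 2 -1.17 and -0.38. They were -1.22 and -0.34 without Cnot4-null PD replicate 1, and -0.35 and 0.09 without Cnot4-null PD replicate 2. Median rescaling left Tdrd5 and Tdrd6 as the members called higher. Calls also changed with libraries left out. The call of Tdrd1 was lost with only the groups compared (adjusted p = 0.0578), without either Cnot4-null LZ library (adjusted p = 0.0548 and 0.104) and without Cnot4-null PD replicate 1 (adjusted p = 0.0837). That of Tdrd3 was lost with quantile normalization (0.69, adjusted p = 0.0544), with only the groups compared (adjusted p = 0.0914) and without Cnot4-null LZ replicate 2 (adjusted p = 0.0916). The call of Tdrd7 was lost without any 1 of the 4 WT libraries or the 2 Cnot4-null LZ libraries (adjusted p = 0.0583 to 0.149), with no filter on low values (adjusted p = 0.0639), with only the groups compared (adjusted p = 0.134) and with median rescaling (0.22, adjusted p = 0.493).

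**Figure D2:**
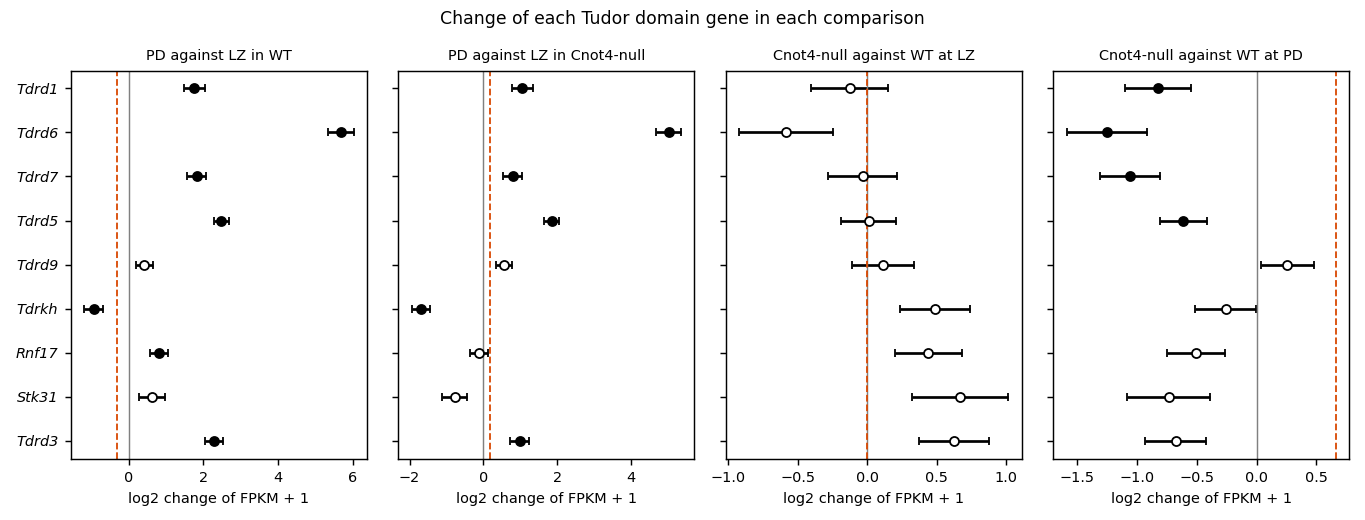
Change of each member (horizontal axes, log2 of FPKM + 1, with a scale of its own in each panel) in the comparisons of stage and genotype. Points are limma estimates with 1 SE, filled where the adjusted p was under 0.05, and the dashed line is the median of all 15899 genes. At PD, 8 of the 9 members lie below 0 while the median of all genes lies at 0.66; with median rescaling the other member, Tdrd9, lies below 0 too (-1.13).

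At LZ, no member passed the test. Of the 9, 0 were called between Cnot4-null and WT (limma), where 0.0692% of all genes were called higher and 0.0252% lower. At an unadjusted p under 0.05, 1 member (Tdrd3) and 1013 of all genes passed. The members' median difference was 0.12 (log2), beside 0.00 for all genes. Tdrd5 differed by 0.01 with a 95% interval of -0.45 to 0.48, and Tdrd7 by -0.03 with an interval of -0.61 to 0.55. The interval of Tdrd6 was wider, -1.37 to 0.21, about a difference of -0.58. That difference was -1.02 without WT LZ replicate 1 and -0.15 without WT LZ replicate 2. Tdrd3 was read at 8.73 and 7.16 FPKM in the Cnot4-null LZ libraries, above the 5.07 and 4.50 of the WT libraries, with a difference of 0.63 ± 0.25 (log2, SE; limma adjusted p = 0.755). The interval of Stk31 was wide (-0.15 to 1.49), and its Cnot4-null LZ libraries stood apart at 131 and 76.4 FPKM. A p above the limit does not show that a level was unchanged.

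At PD, 4 of the 9 members were lower in Cnot4-null than in WT cells, none was higher and 5 did not pass the test, where 11.5% of all genes were called lower and 41.6% higher. The members' median difference was -0.68 (log2), beside 0.66 for all genes. This shift of all genes depended on the scale: with quantile normalization it was -0.10, and with a common median for all libraries -0.21, and the members' median was then -0.77 and -2.05. With quantile normalization 6 members and 25.6% of all genes were called lower, and with median rescaling all 9 members and 40.1% of all genes. The median FPKM of the kept genes was 3.05 and 3.04 in the WT PD libraries and 8.09 and 8.43 in the Cnot4-null PD libraries. Median rescaling therefore shifted the genotype differences at PD downwards together. Its calls at PD are not separate evidence for each gene.

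Tdrd6 was read at 112 and 114 FPKM in the WT PD libraries and at 57.4 and 38.2 in the Cnot4-null PD libraries. The difference was -1.25 ± 0.34 (log2, SE; limma adjusted p = 0.0181), which is -1.91 relative to the median of all genes. Tdrd7 was read at 72.8 and 70.6 FPKM against 42.8 and 26.8, a difference of -1.06 ± 0.25 (limma adjusted p = 0.0108), or -1.72 relative to the median. In both genes the Cnot4-null libraries lay below the WT libraries, and their duplicates stood farther apart. Tdrd1 was read at 65.6 and 70.2 FPKM against 44.2 and 32.6 (-0.82 ± 0.28, limma adjusted p = 0.0399), and Tdrd5 at 62.3 and 61.0 against 44.2 and 36.0 (-0.61 ± 0.20, limma adjusted p = 0.0342). Relative to the median these were -1.49 for Tdrd1 and -1.28 for Tdrd5. The call of Tdrd6 was lost with a pseudocount of 0.1 (-1.27, adjusted p = 0.0635) and with no filter on low values (adjusted p = 0.0522). That of Tdrd1 was lost with no filter (adjusted p = 0.0838) and without a trend in eBayes (adjusted p = 0.0517). With only the groups compared, the calls of Tdrd1, Tdrd5 and Tdrd7 were lost (adjusted p = 0.0549, 0.0696 and 0.054).

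Of the members that did not pass at PD, Tdrd3 was read at 29.1 and 25.2 FPKM in WT and 20.1 and 13.6 in Cnot4-null cells, with a difference of -0.68 ± 0.25 (log2, SE; limma adjusted p = 0.0559). It passed with quantile normalization (-1.10, adjusted p = 0.0125) and median rescaling (-2.05, adjusted p = 0.000613). The difference of Tdrd3 was -0.94 without Cnot4-null PD replicate 1 and -0.41 without Cnot4-null PD replicate 2. Stk31 was read at 100.1 and 93.4 against 78.6 and 42.3 FPKM, and Rnf17 at 59.2 and 61.7 against 49.3 and 36.2. Both lay lower in both Cnot4-null libraries (-0.73 ± 0.35 and -0.51 ± 0.24, limma adjusted p = 0.111 and 0.112). Both passed with median rescaling (-2.15 for Stk31 and -1.92 for Rnf17, adjusted p = 0.00138 and 0.000566). Leaving out Cnot4-null PD replicate 1 gave -1.17 for Stk31 and -0.72 for Rnf17. Leaving out Cnot4-null PD replicate 2 gave -0.30 and -0.29. Tdrkh was read at 19.3 and 19.999 against 18.4 and 14.3 FPKM (-0.26 ± 0.25, limma adjusted p = 0.398), and it passed with quantile normalization (-0.77, adjusted p = 0.0403) and median rescaling (-1.62, adjusted p = 0.00117). Its difference was -0.43 without Cnot4-null PD replicate 1 and -0.09 without Cnot4-null PD replicate 2. Tdrd9 was read at 22.6 and 21.2 against 28.4 and 24.4 FPKM, the only member whose Cnot4-null PD libraries both lay above the WT libraries. Its difference was 0.25 ± 0.22 (limma adjusted p = 0.35), or -0.41 relative to the median of all genes, and its direction turned under quantile normalization (-0.09, adjusted p = 0.766) and median rescaling (-1.13, adjusted p = 0.00435). The difference of Tdrd9 was 0.15 without Cnot4-null PD replicate 1 and 0.36 without Cnot4-null PD replicate 2.

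The calls of the 4 members lower at PD depended on single libraries. They were lost without WT PD replicate 1 or 2, with differences of -1.26 and -1.24 for Tdrd6 and -1.04 and -1.08 for Tdrd7. Those of Tdrd1 were -0.87 and -0.78 and those of Tdrd5 -0.60 and -0.63, each from a WT group of 1 library. Without Cnot4-null PD replicate 1 the differences were -1.54 (Tdrd6), -1.39 (Tdrd7), -1.04 (Tdrd1) and -0.76 (Tdrd5). Without Cnot4-null PD replicate 2 they were -0.96, -0.73, -0.61 and -0.47, and the calls of Tdrd6, Tdrd1 and Tdrd5 were lost. The call of Tdrd1 was also lost without either Cnot4-null LZ library, and that of Tdrd5 without Cnot4-null LZ replicate 2.

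The genotype by stage interaction tests whether the genotype difference itself differed between PD and LZ. For 1 of the 9 members, Tdrd3, it was called lower and for none higher, where 3.97% of all genes were called lower and 26.0% higher. The members' median was -0.75 (log2), beside 0.64 for all genes. For Tdrd3, whose genotype difference was 0.63 at LZ and -0.68 at PD, the interaction was -1.30 ± 0.36 (log2, SE; limma adjusted p = 0.0332). For Stk31 it was -1.40 ± 0.49 (limma adjusted p = 0.0681) and for Tdrd7 -1.03 ± 0.35 (limma adjusted p = 0.0628). The interactions of Tdrd1, Tdrd5 and Tdrd6 did not pass (limma adjusted p = 0.207, 0.127 and 0.307). The call of Tdrd3 was lost without any single LZ or WT PD library. Its interaction was -1.57 without Cnot4-null PD replicate 1 and -1.04 without Cnot4-null PD replicate 2.

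The order of the levels changed with stage. In the WT LZ libraries Stk31 was highest (mean 62.7 FPKM), followed by Tdrkh (39.2) and Rnf17 (33.9), whose libraries overlapped, and Tdrd6 was lowest (1.32). Tdrd1, Tdrd7 and Tdrd9 came next after Rnf17 at means of 19.96, 19.7 and 16.4 FPKM, and neighbours among them overlapped. In the WT PD libraries Tdrd6 stood first (113), then Stk31 (96.7), Tdrd7 (71.7) and Tdrd1 (67.9), each apart from the next, while Tdrd5 (61.6) and Rnf17 (60.5) overlapped. Tdrd3 (27.2), Tdrd9 (21.9) and Tdrkh (19.6) followed, none overlapping the next. The Cnot4-null LZ order was close to that of WT LZ, with Stk31 at 103.7, Tdrkh at 54.7 and Rnf17 at 47.0, the last 2 overlapping. In the Cnot4-null PD libraries the order was blurred: from Stk31 (60.4) through Tdrd6 (47.8), Rnf17 (42.8), Tdrd5 (40.1), Tdrd1 (38.4) and Tdrd7 (34.8) to Tdrd9 (26.4), each gene overlapped the next.

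Markers of the labelled cells and of other testis cells were read from lists of known genes. The PD spermatocyte markers (6 of 6 matched, Ldhc the most abundant) summed to 12164 and 11315 FPKM in the WT PD libraries and to 5548 and 1951 in the Cnot4-null PD libraries, against 90.3 to 343 in the LZ libraries. Each PD library thus carried more of them than any LZ library. The list holds Piwil1, which is also a partner of the members. Of its 6 genes, 2 were called lower in Cnot4-null at PD and none higher, with 1 lower under quantile normalization and 6 under median rescaling. Of all genes, 11.5% were called lower in that comparison and 41.6% higher. The share lower was 25.6% under quantile normalization and 40.1% under median rescaling. The LZ markers (6 of 6, Sycp3 the most abundant) summed to 1117 and 1381 FPKM in the WT LZ libraries, 2582 and 1399 in the Cnot4-null LZ libraries. At PD the sums were 939 and 965 for WT and 779 and 471 for Cnot4-null libraries, most of it Sycp3. Between genotypes at PD, 3 of the 6 were called higher in Cnot4-null, Stra8 (4.44), Dmc1 (2.42) and Prdm9 (1.31), and 2 lower, Spo11 and Sycp3. Stra8 was read at 8.70 and 6.47 FPKM in WT PD libraries and at 228 and 149 in those of Cnot4-null. The call of Prdm9 was lost with quantile normalization (-0.07) and median rescaling (0.61). From LZ to PD in WT 4 of them fell and 1, Spo11, rose.

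Markers of other cell types were also read in the Cnot4-null PD libraries. Of all genes, 41.6% were called higher in these libraries than in WT PD. All 6 spermatid markers (Prm1 the most abundant) were called higher there than in WT PD, with sums of 15701 and 7108 FPKM against 397 and 248. At LZ they summed to 1828 and 1500 in WT and 4035 and 707 in Cnot4-null. All 6 spermatogonial markers (Uchl1 the most abundant) were called higher, with sums of 313 and 436 FPKM against 15.4 and 8.67, while the LZ libraries of both genotypes held 457 to 710. All 6 Leydig cell markers (Insl3 the most abundant) were called higher, with sums of 10021 and 22204 FPKM against 115.5 and 7.07. In the LZ libraries of both genotypes they summed to 9.89 to 19.0 FPKM. All 3 peritubular myoid markers (Acta2 the most abundant) were called higher, with sums of 47.9 and 230.4 FPKM against 1.32 and 1.03. Their sums in the LZ libraries of both genotypes were 0.023 to 0.56 FPKM. Of the macrophage markers (5 of 5 matched, Lyz2 the most abundant) 3 were called higher, with sums of 14.6 and 54.4 FPKM against 1.83 and 1.55. Of the Sertoli cell markers, 5 of 6 were matched (Cldn11 the most abundant) and 2 of 4 tested were called higher, with sums of 5.31 and 9.37 FPKM against 0.767 and 1.23. With quantile normalization the calls of the macrophage, Sertoli and endothelial markers were lost and 5 of 6 spermatogonial markers were called, while those of the spermatid, Leydig and myoid markers held. With median rescaling 1 Sertoli marker was called, and the counts of these other lists did not change. Amh was listed at 0 in 7 of the 8 libraries. The 2 endothelial markers (Cdh5 the most abundant) summed to 1.42 and 5.44 FPKM against 0.0677 and 0.116, and the 1 tested was called higher. Lhcgr was listed at 0 in all 4 LZ libraries and in WT PD replicate 2, and Cyp11a1 and Cyp17a1 were listed at 0 in WT PD replicate 2. Cnot4-null PD replicate 2 had less of the PD and spermatid markers, more of the other lists except the LZ markers, and lower levels of all 9 members than Cnot4-null PD replicate 1. Which cells these transcripts came from was not determined, and their part in the result was not tested.

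**Figure D3:**
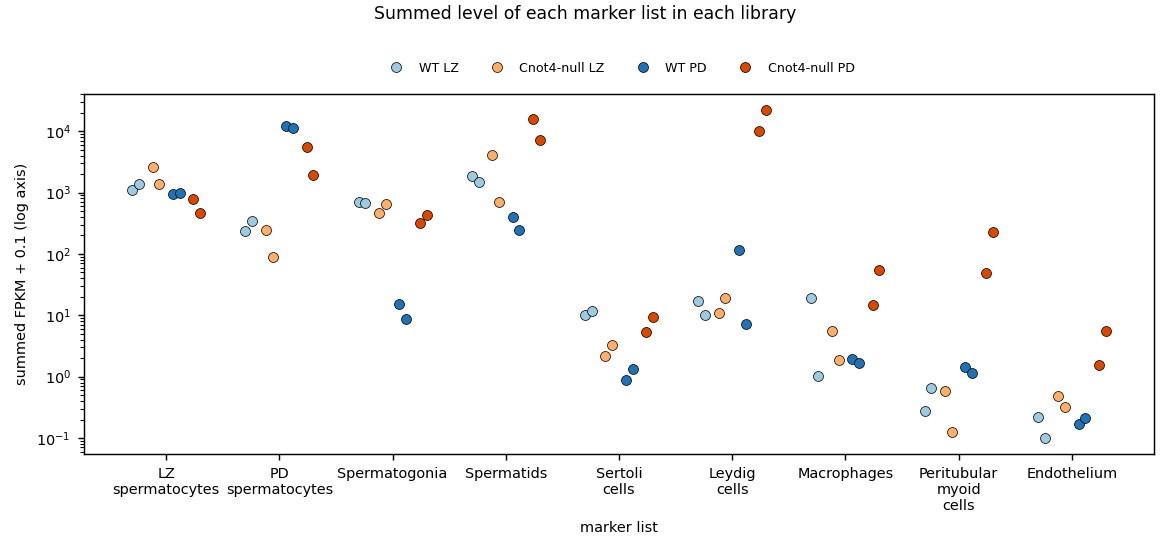
Summed FPKM plus 0.1 (vertical log axis) of each marker list (horizontal axis) in each library, coloured by group. The Cnot4-null PD libraries hold 10021 and 22204 FPKM of Leydig cell markers and 5548 and 1951 FPKM of PD spermatocyte markers.

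Other genes with Tudor domains were read from a second list, of which 6 of 7 were matched (all but Tdrd10). From LZ to PD in WT, 1 of the 6 rose and 5 fell, where 21.6% of all genes rose and 36.2% fell. With median rescaling Smn1 was not called (-0.56, adjusted p = 0.0751). The 1 that rose was Tdrd12, a germ line helicase of piRNA production, which went from 19.3 and 24.5 to 68.2 and 56.0 FPKM (1.46 ± 0.29, limma adjusted p = 0.0039). The 5 that fell, Akap1, Snd1, Smn1, Smndc1 and Spin1, are expressed in many tissues. Spin1, a reader of methylated histones, went from 40.4 and 48.6 to 2.71 and 3.17 FPKM (-3.53 ± 0.25, limma adjusted p = 4.2e-05). Snd1, a nuclease with Tudor-SN structure, went from 16.4 and 12.5 to 0.625 and 0.859 FPKM (-3.14 ± 0.29, limma adjusted p = 9.92e-05). Between genotypes at PD the same 5 were called higher in Cnot4-null, where 41.6% of all genes were. Tdrd12 was called lower (43.2 and 24.5 FPKM, -0.90 ± 0.29, limma adjusted p = 0.0362), as were 11.5% of all genes. Akap1, an anchoring protein of the mitochondrial surface, was read at 1.09 and 1.17 FPKM in the WT PD libraries and 34.3 and 31.1 in the Cnot4-null PD libraries. That level was above the 7.61 to 11.2 of all 4 LZ libraries. Its difference was 3.98 ± 0.21 (log2, SE; limma adjusted p = 9.49e-05), or 3.32 relative to the median of all genes. Spin1 was higher by 2.79 ± 0.25 (limma adjusted p = 0.000295). None of the 6 was called between genotypes at LZ. From LZ to PD in the Cnot4-null libraries Akap1 rose by 1.52 (log2, limma adjusted p = 0.00157). Snd1 and Spin1 fell by 1.32 and 0.80 (log2, limma adjusted p = 0.00883 and 0.0369). With median rescaling 4 of the 6 were called lower, where 32.6% of all genes were. The interaction was called higher for 5 of the 6 (26.0% of all genes), led by Akap1 (3.61) and Spin1 (2.73). These were the only 2 called with quantile normalization, where 9.74% of all genes were called higher. After median rescaling Smndc1 turned to -0.30 (adjusted p = 0.26) at PD and Smn1 was not called (0.26, adjusted p = 0.356), both turned in the interaction (-0.19 and -0.14), where Snd1 was not called (0.85, adjusted p = 0.113). With quantile normalization Snd1 did not pass at PD between genotypes (0.80, adjusted p = 0.0689).

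**Figure D4:**
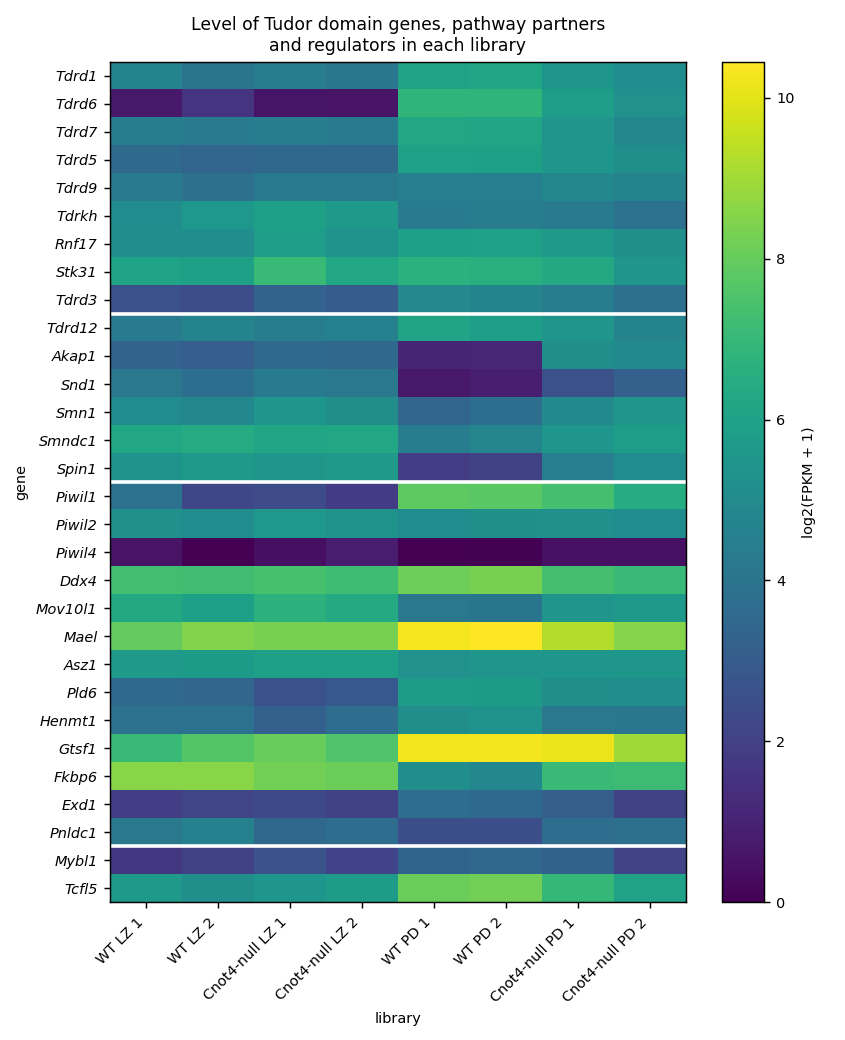
Levels (colour, log2 of FPKM + 1) of the 9 members, 6 other Tudor domain genes, 13 piRNA pathway partners and 2 regulators (rows, in that order from the top, with white lines between them) in the 8 libraries (columns). Spin1 is at 2.71 and 3.17 FPKM in the WT PD libraries and at 20.9 and 32.8 in the Cnot4-null PD libraries, while Tdrd6 is at 112 and 114 and at 57.4 and 38.2.

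All 13 piRNA pathway partners were matched, and 12 passed the limit on low values. Piwil4, a PIWI protein of fetal germ cells, stayed below 1 FPKM in the 8 libraries and was not tested. From LZ to PD in WT, 7 of the 12 rose, 3 fell and 2 did not pass the test. Of all genes, 21.6% rose and 36.2% fell. In the Cnot4-null libraries 4 rose, 2 fell and 6 did not pass, where 27.8% of all genes rose and 18.2% fell. With quantile normalization 3 partners were called higher and 4 lower there (18.7% and 31.4% of all genes). With median rescaling 3 were higher and 5 lower (20.9% and 32.6%), and with only the groups compared 2 and 2. Piwil1, the PIWI protein of pachytene piRNAs, was read at 14.0 and 3.86 FPKM in WT LZ and 229 and 215 in WT PD. In Cnot4-null cells it was read at 4.31 and 2.52 at LZ and 162 and 88.6 at PD. Its rise was 4.71 ± 0.54 in WT and 4.80 ± 0.54 in Cnot4-null (log2, SE; limma adjusted p = 0.000253 and 0.000725), and its genotype difference at PD did not pass (-0.88 ± 0.54, limma adjusted p = 0.194). Piwil2, the partner of TDRD1, was read at 33.2 to 46.1 FPKM in the LZ libraries and 32.5 to 36.7 in the PD libraries and was not called. With median rescaling it was called higher at PD in WT (0.85, adjusted p = 0.00536) and lower at PD in Cnot4-null (-0.85, adjusted p = 0.00718; -0.47, adjusted p = 0.0498 with quantile normalization), and lower in Cnot4-null than in WT at PD (-1.40, adjusted p = 0.00079).

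Gtsf1, a zinc finger cofactor of PIWI proteins, had the second largest rise of the list in WT, from 134.5 and 200.5 to 1195 and 1244 FPKM (2.88 ± 0.40, limma adjusted p = 0.000657). Fkbp6, a co-chaperone of the pathway, fell from 382 and 384 to 33.4 and 28.2 FPKM (-3.60 ± 0.17, limma adjusted p = 1.69e-05), and Mov10l1, the helicase that starts piRNA processing, from 80.7 and 59.5 to 16.9 and 15.8 FPKM (-2.02 ± 0.22, limma adjusted p = 0.000218). In the Cnot4-null libraries the largest rises after Piwil1 were those of Pld6, a mitochondrial protein of piRNA processing (2.38 ± 0.19, limma adjusted p = 0.000365), and Gtsf1 (1.75 ± 0.40, limma adjusted p = 0.011). Fkbp6 and Mov10l1 fell there by 1.06 and 1.02 (log2; limma adjusted p = 0.00293 and 0.00909).

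Between genotypes at PD, 4 of the 12 partners were lower in Cnot4-null, 3 higher and 5 did not pass. Of all genes, 11.5% were called lower and 41.6% higher. With quantile normalization 4 partners were lower and 2 higher, where 25.6% and 17.8% of all genes were. With median rescaling 9 were lower and 1 higher, where 40.1% and 23.3% of all genes were. Mael, a granule protein of the pathway, was read at 1278 and 1393 FPKM against 611 and 374 (-1.48 ± 0.29, limma adjusted p = 0.00542). Henmt1, which methylates piRNA ends, was read at 34.7 and 40.1 against 16.8 and 16.3 FPKM (-1.13 ± 0.23, limma adjusted p = 0.00667). Ddx4, the germ granule helicase, was read at 282 and 311 against 165 and 132 FPKM (-1.01 ± 0.19, limma adjusted p = 0.00495). Fkbp6 and Mov10l1, which fell from LZ to PD in WT, were the largest of the 3 that were higher, by 2.12 ± 0.17 and 1.43 ± 0.22 (limma adjusted p = 0.000227 and 0.00213). Pnldc1, the nuclease of piRNA trimming, was the other (1.29 ± 0.23, limma adjusted p = 0.00371). After median rescaling Mov10l1 and Pnldc1 lay at 0.05 and 0.02 and were not called, nor was Pnldc1 with quantile normalization (0.37, adjusted p = 0.285). None of the 12 partners was called at LZ, where 3 passed at an unadjusted p under 0.05. The interaction was called higher for 3 of them, led by Fkbp6 (2.54) and Pnldc1 (2.07), and lower for Mael (-1.56) and Ddx4 (-1.05). Of all genes, 26.0% were called higher and 3.97% lower in it. With quantile normalization 1 partner was called higher and 2 lower (9.74% and 12.4% of all genes). With median rescaling 1 was higher and 8 lower (13.6% and 32.4%). That of Mov10l1 (1.00) turned to -0.42 with median rescaling. That of Pnldc1 was not called with quantile normalization (1.17, adjusted p = 0.0612) or median rescaling (0.76, adjusted p = 0.0991), nor that of Ddx4 with quantile normalization (-0.66, adjusted p = 0.0654).

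Of the 3 genes of symmetric arginine methylation, which makes the marks that Tudor domains bind, Prmt5 and Wdr77 fell from LZ to PD in both genotypes. Wdr77 was 0.91 ± 0.22 higher in Cnot4-null at PD (log2, SE; limma adjusted p = 0.0126), though not after median rescaling (-0.46, adjusted p = 0.0918), or with quantile normalization (0.53, adjusted p = 0.156). The fall of Prmt5 in WT (-0.78) became 0.08 with median rescaling (adjusted p = 0.787). The genotype difference of Prmt5 at PD (0.29, limma adjusted p = 0.262) turned to -1.10 with median rescaling (adjusted p = 0.00249). Clns1a was not called in the 5 contrasts, but at PD it was called lower with quantile normalization (-0.71, adjusted p = 0.022) and median rescaling (-1.84, adjusted p = 0.000618). From LZ to PD in Cnot4-null it was called lower with both (-0.87 and -1.16), and in WT higher with median rescaling (0.69, adjusted p = 0.0317). Both regulators of pachytene genes rose in WT. Mybl1 went from 2.22 and 3.03 to 9.39 and 10.3 FPKM (1.59 ± 0.41, limma adjusted p = 0.0123) and was read at 5.35 and 3.24 and then 8.60 and 3.38 in Cnot4-null cells, where the stages overlapped. Its genotype difference at PD did not pass (-0.74 ± 0.41, limma adjusted p = 0.16). It passed with quantile normalization (-1.82, adjusted p = 0.0217) and median rescaling (-1.99, adjusted p = 0.00332). Tcfl5 went from 49.8 and 36.1 to 270.4 and 294 FPKM in WT (2.71 ± 0.32, limma adjusted p = 0.000307). It was read at 123 and 64.4 FPKM in Cnot4-null PD, lower than in WT by -1.65 ± 0.32 (limma adjusted p = 0.00537).

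For each member, the gene with the most similar pattern was sought among 9204 genes with a mean FPKM of at least 5, as the smallest root mean square difference of log2(FPKM + 1) about its mean over the 8 libraries. The nearest genes were Tram1 for Tdrd7 (0.0867), Dcaf12 for Tdrd5 (0.0938) and Rif1 for Rnf17 (0.0985). They were Taok2 for Tdrd9 (0.106), Cebpg for Tdrd3 (0.12), Tmem66 for Stk31 (0.135), Prkaa1 for Tdrd1 (0.143), Cenpk for Tdrkh (0.156) and CK137956 for Tdrd6 (0.175). Among the members themselves, Tdrd1 and Tdrd7 were closest to each other (0.18), with 9 of the 9204 genes closer to Tdrd1 and 64 closer to Tdrd7. Rnf17 and Stk31 were next (0.28), with 387 genes closer to Rnf17 and 111 closer to Stk31. Tdrd6 and Tdrkh were farthest from the others. Their nearest members were Tdrd5 at 1.65 and Stk31 at 0.685, with 1123 and 2676 genes closer. The measure grows with the size of a change, and Tdrd6 and Tdrd5 both rose in WT (5.68 and 2.47).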

How the data were processed

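The authors mapped the reads to mm9 with TopHat 2.1.1 and computed FPKM with Cufflinks 2.2.1, and all computations here started from the deposited FPKM. No scaling between libraries is described, and none was applied. The methods name Smart-Seq2 and the labels a TruSeq kit with total RNA, and which was used was not determined. Genes above 1 FPKM in at least 1 library were kept (15899 of 23235), and log2(FPKM + 1) was fitted with 4 group means over 8 libraries (4 residual degrees of freedom) in limma 3.58.1 under R 4.3.3, with a trend in eBayes. P-values were two-sided and adjusted (Benjamini-Hochberg) over all kept genes, separately for each of 5 contrasts. A gene is called where its adjusted p is under 0.05. The exact test of 2 against 2 libraries cannot give a p below 0.333, so it was not used.

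Members and lists were chosen with earlier results of these data known. Of each list of partners, the 2 largest called rises and falls per contrast were named, with Piwil1, Piwil2, Ddx4 and Mybl1. Henmt1, Meiob and Adgre1 were matched through synonyms, and Tdrd10 and Rhox5 were not matched. The procedure was tried on simulated data with the same spread of a gene in every group. The spread of these libraries differed between groups, so that trial does not show how the procedure performs on them. Python 3.11.15 was used for the rest. All columns of the files were used.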

Additional observations from a re-analysis of the deposited data

Results flagged for a closer look

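The genotype by stage interaction of Tdrd3 was -1.30 (log2; limma adjusted p = 0.0332), so its genotype difference at PD differed from that at LZ by this test. The call was lost with no filter on low values (limma adjusted p = 0.0553). It was also lost without any single LZ or WT PD library, with interactions from -1.43 to -1.18. At LZ the WT libraries read 5.07 and 4.50 FPKM, and the libraries labelled Cnot4-null 8.73 and 7.16. At PD the WT libraries read 29.1 and 25.2 FPKM, and the libraries labelled Cnot4-null 20.1 and 13.6.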

How the results depend on the processing

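The counts of members called were recomputed under each alternative; rescaling to the same sum was chosen after seeing the data. From LZ to PD in WT, 6 members were called higher, and 5 to 8 over all settings. With quantile normalization 7 members and 25.9% of all genes were called higher, and with median rescaling 8 members and 32.5% of all genes. The 1 called lower became 0 with median rescaling and at adjusted p under 0.01. Its call was also lost without some libraries, as given above. In Cnot4-null, the 5 called higher became 2 with median rescaling, 2 with only the groups compared and 2 at adjusted p under 0.01. With median rescaling 20.9% of all genes were called higher. The count was also lower without some libraries, as given above. The 1 called lower became 2 with quantile normalization, 3 with median rescaling and 2 with the same sum. Of all genes, 31.4%, 32.6% and 18.6% were then called lower. Between genotypes at PD, the 4 called lower became 2 with no filter on low values and 1 with only the groups compared. Their count became 0 at adjusted p under 0.01 and 9 with median rescaling (40.1% of all genes). Calls lost with libraries left out are given above. For the interaction, the 1 called lower became 0 with no filter and 0 at adjusted p under 0.01. It became 5 with quantile normalization (12.4% of all genes) and 9 with median rescaling (32.4%). With the replicate block the count was 2, and with the same sum 4 (4.39% of all genes). Median rescaling reversed Tdrd9 at PD between genotypes (-1.13) and in the interaction (-1.28). The cause was not tested.

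With replicate number as a replicate block, 5 members were lower at PD in place of 4, Tdrd3 being the added one (limma adjusted p = 0.0419), and 2 in the interaction in place of 1, Stk31 being the added one (limma adjusted p = 0.0365). The numbers are not shown to mark a shared batch: residuals of same-numbered libraries correlated by -0.0651 to 0.194 between groups.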
